A study of Homo sapiens with 24 samples.

Results

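The 10 transcripts described here encode the cyclins and cyclin-dependent kinases (CDKs) that drive the cell cycle engine: CCND1, CCND3, CCNE1, CCNE2, CCNA2, CCNB1 and CCNB2 among the cyclins, and CDK1, CDK2 and CDK4 among the kinases. They were taken by gene symbol from a table of 25277 symbols, each matched 1 line, and all 10 were above the floor of 1 FPKM (fragments per length of transcript and per size of library) in all 24 samples. Their levels were followed after small interfering RNA (siRNA) against POM121, a nucleoporin of the nuclear membrane, in 22Rv1DR and DU145DR cells. These are described as aggressive sublines of the human prostate cancer lines 22Rv1 and DU145, and they are known as models of docetaxel resistance. The 6 groups were 22Rv1DR cells given siPOM121 construct 1 (libraries 4B and 5B), siPOM121 construct 2 (4C and 5C) or a control treatment (4A and 5A), and DU145DR cells given construct 1 (1B and 2B), construct 2 (1C and 2C) or control (1A and 2A). What the control cells received is not given in the labels, nor is the time of harvest. They also leave unsaid whether libraries of the same group are separate cultures, so p-values reflect the spread between libraries, which may be technical. No group carried a stable knockout, since siRNA lowers a transcript for a limited time.

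Cyclins are the regulatory subunits of CDKs. The E, A and B cyclins rise and are destroyed at set points of the cell cycle, while the kinases are more constant. D cyclins bind CDK4 and its relative CDK6 and begin to inactivate the retinoblastoma protein, E cyclins with CDK2 complete that step and start DNA replication, cyclin A2 acts with CDK2 in S phase and with CDK1 in G2, and the B cyclins with CDK1 drive entry into mitosis. CCND1 is also known as a target of growth factor signalling.

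Each library was read on 2 lanes, and the lane values of the 10 transcripts differed by at most 0.23 on the log2 scale. Lanes 1 and 2 held every DU145DR library and also 4A, and lanes 3 and 4 held the remaining 5 from 22Rv1DR, so that values without 4A come from a single pair of lanes within each line. Sequencing depth is not given, and between 12361 and 12569 symbols per sample passed the floor in 22Rv1DR, between 11884 and 12126 in DU145DR. The epithelial cadherin CDH1 and the prostate kallikreins KLK2 and KLK3 were listed at 0 in all 12 DU145DR samples. The epithelial keratins KRT8 and KRT18 were present in both lines, and PTPRC (leukocytes), PECAM1 (endothelium) and DCN (fibroblasts) were listed at 0 in all 24 samples. COL1A1 lay between 7.60 and 9.05 FPKM in 22Rv1DR and reached at most 2.93 FPKM in DU145DR, at a median of 2.25 and listed at 0 in 1 of 12 samples. The targeted transcript POM121 was at 7.68 and 7.81 FPKM with construct 1, 6.73 and 7.43 FPKM with construct 2 and 38.5 and 37.8 FPKM in control 22Rv1DR cells. In DU145DR it was at 13.4 and 13.5 FPKM with construct 1, 12.5 and 13.2 FPKM with construct 2 and 21.6 and 21.3 FPKM in control cells. One group stood apart: over 13622 symbols the 2 libraries of construct 2 in 22Rv1DR differed by a median of 0.15 on the log2 scale, against 0.04 to 0.06 in the other 5 groups. Changes of the members with construct 2 in 22Rv1DR are therefore given with and without each of its libraries, 4C and 5C. A fit without either of them takes the spread of construct 2 from the other groups, so its calls do not test that spread. With all libraries in the fit, 1 spread is shared by all groups. The SE, intervals and p-values of construct 2 in 22Rv1DR thus do not carry its wider spread in full.

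The start regions of 5 members are shown, chosen in part for the motifs they hold. CCND3, which fell more than CDK4 with construct 1 in 22Rv1DR, is not among them. The windows are from RefSeq on GRCh38.p14 and run from 250 bases before to 50 bases after the annotated start, 5′ to 3′ on the gene's strand. The windows are CDK4 at chr12:57752261-57752560 (minus strand), CCNA2 at chr4:121823834-121824133 (minus strand), CCNB1 at chr5:69166900-69167199 (plus strand), CCNB2 at chr15:59104896-59105195 (plus strand) and, for CDK1, the second of 2 annotated starts at chr10:60778228-60778527 (plus strand). Capitals mark matches, on either strand, to CHR (the cell cycle gene homology region, TTTGAA), the CCAAT box (CCAAT), the E box (CACGTG) and E2F sites (TTTCGCGC or TTTGGCGC).
CDK4: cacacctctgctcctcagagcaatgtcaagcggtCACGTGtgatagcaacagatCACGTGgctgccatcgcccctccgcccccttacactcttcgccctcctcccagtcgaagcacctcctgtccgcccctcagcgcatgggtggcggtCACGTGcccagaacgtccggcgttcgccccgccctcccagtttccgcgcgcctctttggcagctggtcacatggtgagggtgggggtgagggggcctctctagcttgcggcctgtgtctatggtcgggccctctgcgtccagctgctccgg
CCNA2: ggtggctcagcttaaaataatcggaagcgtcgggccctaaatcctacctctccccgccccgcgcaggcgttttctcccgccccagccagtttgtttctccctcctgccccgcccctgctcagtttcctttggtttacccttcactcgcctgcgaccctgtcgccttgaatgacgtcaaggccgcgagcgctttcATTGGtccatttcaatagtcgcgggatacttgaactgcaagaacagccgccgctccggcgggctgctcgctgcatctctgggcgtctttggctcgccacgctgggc
CCNB1: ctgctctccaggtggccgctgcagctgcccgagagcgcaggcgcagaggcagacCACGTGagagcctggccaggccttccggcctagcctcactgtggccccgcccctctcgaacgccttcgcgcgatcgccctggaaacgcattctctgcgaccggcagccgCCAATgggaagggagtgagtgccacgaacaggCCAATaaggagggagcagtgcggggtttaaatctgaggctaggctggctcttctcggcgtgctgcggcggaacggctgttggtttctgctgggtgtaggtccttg
CCNB2: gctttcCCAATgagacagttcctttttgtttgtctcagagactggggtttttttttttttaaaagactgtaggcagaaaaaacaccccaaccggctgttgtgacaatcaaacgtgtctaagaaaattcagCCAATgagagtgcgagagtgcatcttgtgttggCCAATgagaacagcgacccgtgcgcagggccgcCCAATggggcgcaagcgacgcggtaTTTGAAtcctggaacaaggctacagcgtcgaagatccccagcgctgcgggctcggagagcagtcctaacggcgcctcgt
CDK1: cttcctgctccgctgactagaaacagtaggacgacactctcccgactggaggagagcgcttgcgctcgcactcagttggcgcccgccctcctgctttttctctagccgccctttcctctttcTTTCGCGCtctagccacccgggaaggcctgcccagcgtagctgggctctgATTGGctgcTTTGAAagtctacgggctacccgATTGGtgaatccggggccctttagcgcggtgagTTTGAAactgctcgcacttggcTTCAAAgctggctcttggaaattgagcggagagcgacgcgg

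CDK4 held 3 E boxes, the sequence bound by MYC and related factors, and none of the other 3 motifs. CCNB2 held 4 CCAAT boxes, the sequence bound by NF-Y, and 1 CHR, the element through which cell cycle genes are repressed outside G2 and mitosis. CCNB1 held 2 CCAAT boxes and 1 E box, CCNA2 held 1 CCAAT box, and the second CDK1 window held 3 CHR matches, 2 CCAAT boxes and 1 E2F match. The first CDK1 window, not shown, held 1 CHR match, 1 CCAAT box and 1 E2F match. Of all 35116 windows of this length in the same table, 15.2% hold a CHR match, 34.6% a CCAAT box, 7.26% an E box and 1.15% an E2F match. The windows shown were chosen in part for their matches, so these shares are no test of them. In all, windows of 7 of the 10 members were searched, and none of CCND1, CCNE2 or CDK2. The chromosome of CCNE2 was skipped in that search but not in the shares over all windows. CCND3 has 3 annotated starts with at most 1 CCAAT box each, and CCNE1 had no match to these letters. A match describes the letters only. Variants of these motifs were not searched, so a window without a match may still hold one.

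**Figure D1:**
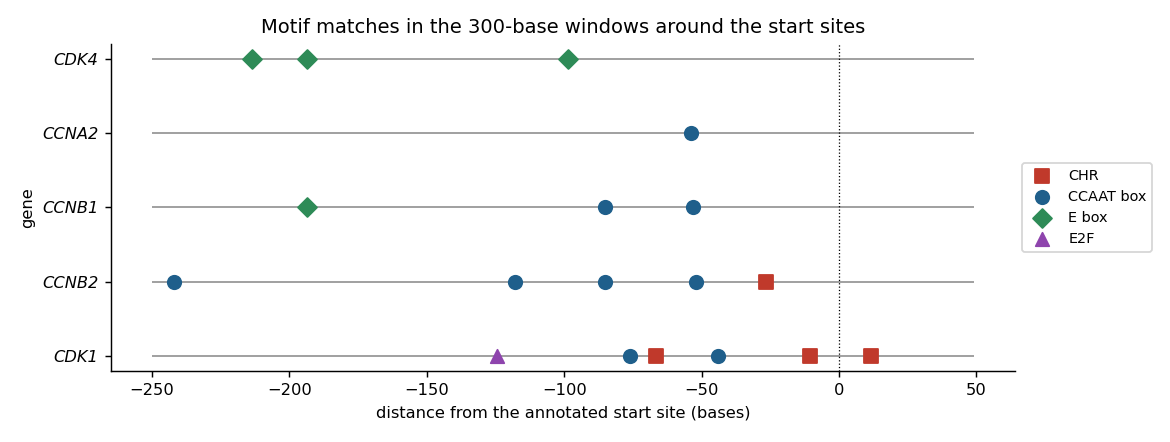
Positions of motif matches (both strands) around the annotated starts in the 5 windows printed, those of CDK4, CCNA2, CCNB1, CCNB2 and the second CDK1 start. The x axis is the distance from the start site in bases and each row is 1 window. CDK4 shows 3 E boxes, CCNB2 shows 4 CCAAT boxes and 1 CHR, and the second CDK1 start shows 3 CHR matches.

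With construct 1 in 22Rv1DR, 8 of the 10 transcripts fell and 1, CCNE1, rose, at a Benjamini-Hochberg adjusted p under 0.05 in limma over all symbols tested. Of the 13622 symbols tested, 27.1% were called in that comparison, 15.2% lower and 12% higher. The median change of the 10 was -0.39 on the log2 scale, against 0 over all symbols tested. With construct 2 in the same line 3 fell (CCND3, CDK4 and CCNB1) and 1 rose (CDK1), where 35.1% of all symbols were called, 20.6% lower and 14.5% higher, and the median of the 10 was -0.07 against -0.03. Both constructs were compared with the same control libraries. In DU145DR only CCND1 fell, with construct 1 (19.8% of all symbols called, 7.62% lower) and with construct 2 (16.6% called, 5.62% lower). In bulk RNA, fewer cells in the phase that uses a transcript and less of that transcript per cell cannot be told apart.

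**Figure D2:**
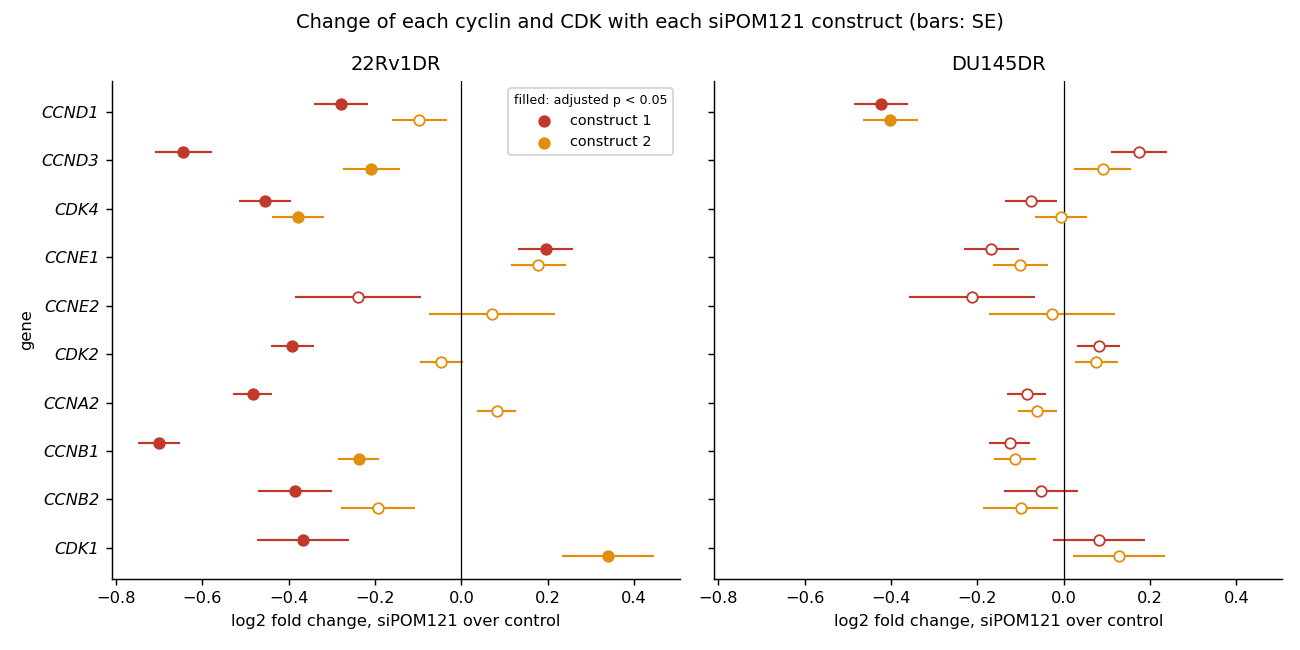
Log2 fold change of each transcript for construct 1 and construct 2 over control, in 22Rv1DR and DU145DR; points are the fitted change (n = 2 libraries per group), bars the SE, and filled points have an adjusted p below 0.05 (limma). In 22Rv1DR construct 1 lies left of 0 for 9 transcripts, while CDK1 lies at -0.37 with construct 1 and at 0.34 with construct 2.

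Among the G1 genes, the D cyclins and CDK4 fell in 22Rv1DR, CCND3 and CDK4 to 0.744-fold and 0.749-fold of control over both constructs. CDK4, the kinase partner of the D cyclins, was at 78.3 and 80.7 FPKM with construct 1, 89.8 and 78.3 FPKM with construct 2 and 107 and 111 FPKM in control cells. All 4 siPOM121 libraries lay below both controls, and those of the 2 constructs overlapped. The log2 fold change was -0.45 ± 0.06 (SE, n = 2 libraries per group throughout) with construct 1 and -0.38 ± 0.06 with construct 2, with adjusted p = 0.000752 and 0.00193 in limma. The construct 2 value was -0.48 without 4C and -0.28 without 5C, called in both cases. Construct 2 minus construct 1 was 0.08 with a 95% interval of -0.06 to 0.21, and was called only without 5C (0.18, adjusted p = 0.0057, range over all alternatives 0.0057 to 0.837). Both calls against control were lost only with 22Rv1DR fitted alone (adjusted p = 0.0528 and 0.0683). In DU145DR, CDK4 was at 92.2 and 92.7 FPKM with construct 1, 98.4 and 95.6 FPKM with construct 2 and 98.4 and 96.5 FPKM in control cells, a mean change of -0.04 ± 0.05 with a 95% interval of -0.16 to 0.08. CDK4 shares 43.2% of its exon bases with TSPAN31 on the opposite strand (GENCODE v29), and the library type does not keep the strand. TSPAN31 was at 23.2 and 22.8 FPKM with construct 1, 27.3 and 24.3 FPKM with construct 2 and 18.2 and 19.3 FPKM in control 22Rv1DR cells, and was listed at 0 in every DU145DR library. In 22Rv1DR its values lay higher with siPOM121, where those of CDK4 lay lower. How reads of the shared bases were divided between CDK4 and TSPAN31 is not given, and their part in the CDK4 values was not tested.

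CCND3, the D cyclin known for its part in lymphoid cells, was at 23.2 and 21.4 FPKM with construct 1, 29.9 and 30.4 FPKM with construct 2 and 33.6 and 36.0 FPKM in control 22Rv1DR cells. The 3 groups did not overlap, and construct 1 was lowest. The change was -0.64 ± 0.07 with construct 1 and -0.21 ± 0.07 with construct 2 (adjusted p = 0.000179 and 0.0347, limma). The construct 1 call held under all 22 alternatives. The construct 2 call was lost under 11, among them without 4C (-0.20, adjusted p = 0.0815), and kept without 5C (-0.22, adjusted p = 0.0375, range over all alternatives 0.0267 to 0.2). In DU145DR, CCND3 lay at 53.7 and 48.0 FPKM with construct 1, 48.5 and 47.2 FPKM with construct 2 and 45.5 and 44.4 FPKM in control cells. All 4 siPOM121 libraries were above the controls there, but the mean change of 0.13 ± 0.06 was not called (adjusted p = 0.124, limma).

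CCND1, the main D cyclin of epithelial cells, was the transcript that fell in both lines. Of its exon bases 10.3% lie opposite LTO1 (GENCODE v29), which had no value above the floor under that symbol. In DU145DR CCND1 was at 64.3 and 63.7 FPKM with construct 1, 65.4 and 64.6 FPKM with construct 2 and 88.3 and 83.3 FPKM in control cells. The 4 siPOM121 libraries lay within 2 FPKM of one another, well below both controls. The change was -0.42 ± 0.06 with construct 1 and -0.40 ± 0.06 with construct 2 (adjusted p = 0.00221 and 0.00357, limma), and the mean change of -0.41 ± 0.05 stayed past the threshold under all 22 alternatives (adjusted p up to 0.0165). In 22Rv1DR it was at 429 and 432 FPKM with construct 1, 456 and 523 FPKM with construct 2 and 532 and 512 FPKM in control cells. Library 5C lay between the controls, so construct 2 overlapped them. The change was -0.28 ± 0.06 with construct 1 (adjusted p = 0.0106, limma) and -0.10 ± 0.06 with construct 2 (adjusted p = 0.265, limma). For construct 2 it was 0.0026 without 4C (adjusted p = 1) and -0.20 without 5C (adjusted p = 0.00399, range over all alternatives 0.00399 to 1). The mean over constructs, -0.19 ± 0.05 (adjusted p = 0.0248, limma), was not called without 4A, 5A, 4B or 5B, with 22Rv1DR fitted alone, or under quantile normalization, where it was -0.17 (adjusted p = 0.214, the highest of all alternatives). The construct 1 call was lost without 4A, 4B or 5B, under quantile normalization and with 22Rv1DR fitted alone (adjusted p = 0.121, the highest of all alternatives).

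The E cyclins, which with CDK2 start DNA replication, were the least abundant members and moved little. CCNE1 was at 7.64 and 7.13 FPKM with construct 1, 7.26 and 7.31 FPKM with construct 2 and 6.39 and 6.49 FPKM in control 22Rv1DR cells. All 4 siPOM121 libraries were above both controls, by 0.20 ± 0.06 with construct 1 and 0.18 ± 0.06 with construct 2 (adjusted p = 0.0482 and 0.0564, limma). For construct 2 it was 0.18 without 4C and 0.17 without 5C, called in neither. The mean of both, 0.19 ± 0.06, was called at adjusted p = 0.0265 but not without 4A, 5A or 4B, with 22Rv1DR fitted alone or with the higher-numbered lanes (range over all alternatives 0.017 to 0.343), and the construct 1 call was lost under 12 of 22 alternatives (0.0285 to 0.346). In DU145DR, CCNE1 was at 7.75 and 7.75 FPKM with construct 1, 7.94 and 8.31 FPKM with construct 2 and 8.25 and 9.19 FPKM in control cells, with a mean change of -0.13 ± 0.06 that was not called (adjusted p = 0.112, limma). 

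CCNE2 passed no test against control in either line with all libraries in the fit. It was at 8.74 and 7.76 FPKM with construct 1, 12.2 and 8.52 FPKM with construct 2 and 10.2 and 9.26 FPKM in control 22Rv1DR cells. The construct 2 libraries lay on both sides of the controls: the change was 0.07 ± 0.15, or -0.19 without 4C (adjusted p = 0.168) and 0.33 without 5C (adjusted p = 0.0181). Construct 1 gave -0.24 ± 0.15 (adjusted p = 0.264, limma), which passed the threshold without 4C (0.0373) and without 5C (0.037). In DU145DR it was at 10.2 and 9.43 FPKM with construct 1, 11.7 and 10.6 FPKM with construct 2 and 11.1 and 11.6 FPKM in control cells. Of its exon bases, 37.0% lie opposite INTS8, which had 16.2 to 57.4 FPKM over the 12 libraries.

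CDK2, the kinase of E cyclins and cyclin A2, fell with construct 1 in 22Rv1DR and showed no detectable change with construct 2. It was at 61.6 and 63.1 FPKM with construct 1, 81.9 and 76.6 FPKM with construct 2 and 82.0 and 81.5 FPKM in control cells. The construct 1 libraries lay apart from the other 4. The change was -0.39 ± 0.05 with construct 1 (adjusted p = 0.000617, limma) and -0.05 ± 0.05 with construct 2, with a 95% interval of -0.16 to 0.07 (-0.09 without 4C and 0.0023 without 5C, called in neither). The construct 1 call held under all 22 alternatives. In DU145DR, CDK2 was at 74.4 and 69.5 FPKM with construct 1, 71.9 and 71.4 FPKM with construct 2 and 69.4 and 66.6 FPKM in control cells, a mean change of 0.08 ± 0.04 that was not called (adjusted p = 0.228, limma). Of the CDK2 exon bases 14.5% lie opposite AC025162.1, which had no value above the floor under that symbol. A further 2.29% lie opposite PMEL, at 0 to 2.05 FPKM over the libraries.

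CCNA2, the cyclin of S phase and G2, fell with construct 1 in 22Rv1DR. In 22Rv1DR it was at 28.1 and 29.03 FPKM with construct 1, 43.4 and 41.2 FPKM with construct 2 and 40.5 and 39.4 FPKM in control cells. Construct 1 lay well below the controls and construct 2 just above them. The change was -0.48 ± 0.04 with construct 1 (adjusted p = 0.000111, limma) and 0.08 ± 0.04 with construct 2 (adjusted p = 0.186, limma). For construct 2 it was 0.04 without 4C (adjusted p = 0.475) and 0.12 without 5C (adjusted p = 0.0344, range over all alternatives 0.0344 to 0.484). The mean of both constructs, -0.20 ± 0.04, was called in 22Rv1DR (adjusted p = 0.00402, limma) although it averages 2 unlike values. The calls for construct 1 and for both constructs held under all 22 alternatives. In DU145DR, CCNA2 was at 64.6 and 61.8 FPKM with construct 1, 63.7 and 64.9 FPKM with construct 2 and 66.9 and 67.2 FPKM in control cells. All 4 siPOM121 libraries were below the controls there, by a mean of -0.07 ± 0.04 that was not called (adjusted p = 0.215, limma). EXOSC9, opposite 9.08% of the CCNA2 exon bases, was at 27.9 and 27.8 FPKM with construct 1, 32.2 and 31.9 FPKM with construct 2 and 35.3 and 35.1 FPKM in control 22Rv1DR cells.

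CCNB1, the cyclin that activates CDK1 for mitosis, showed the largest fall of the 10 in 22Rv1DR with construct 1. It was at 56.4 and 57.9 FPKM with construct 1, 82.0 and 75.7 FPKM with construct 2 and 93.0 and 92.9 FPKM in control cells. The 3 groups were clear of one another. The change was -0.70 ± 0.05 with construct 1 (adjusted p = 2.3e-05, limma) and -0.24 ± 0.05 with construct 2 (adjusted p = 0.0057, limma), and with construct 2 it was -0.30 without 4C and -0.18 without 5C, called in both cases. The construct 1 call held under all 22 alternatives, and that of construct 2 was lost only with 22Rv1DR fitted alone (adjusted p = 0.0618). In DU145DR it was at 55.2 and 53.2 FPKM with construct 1, 55.7 and 53.6 FPKM with construct 2 and 59.4 and 58.8 FPKM in control cells. All 4 siPOM121 libraries lay below the controls, by a mean of -0.12 ± 0.04 that missed the threshold (adjusted p = 0.0682, limma) and passed it without 4C or without 5C, libraries of the other line that add to the shared spread (lowest adjusted p 0.00978, highest 0.271).

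CCNB2, the second mitotic B cyclin, was at 37.9 and 38.9 FPKM with construct 1, 49.0 and 39.3 FPKM with construct 2 and 49.5 and 50.8 FPKM in control 22Rv1DR cells. Library 4C was close to the controls and 5C close to construct 1. The change was -0.39 ± 0.09 with construct 1 (adjusted p = 0.0101, limma) and -0.19 ± 0.09 with construct 2 (adjusted p = 0.113, limma), and for construct 2 it was -0.35 without 4C (adjusted p = 0.000621) and -0.03 without 5C (range over all alternatives 0.000621 to 0.59). The construct 1 call was lost without 5A (0.0664) and without 4B (0.0684, range over all alternatives 8.12e-05 to 0.146), and that of both constructs, -0.29 ± 0.07 (adjusted p = 0.0152, limma), without 4A or 5A, under either scaling, with the lower-numbered lanes and with 22Rv1DR fitted alone (0.157, the highest of all alternatives). In DU145DR it was at 49.9 and 52.4 FPKM with construct 1, 48.5 and 50.5 FPKM with construct 2 and 53.1 and 52.9 FPKM in control cells, a mean change of -0.08 ± 0.07 that was not called.

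CDK1, the kinase of mitosis, was the one member that fell with one construct and rose with the other. In 22Rv1DR it was at 56.3 and 56.3 FPKM with construct 1, 104 and 81.1 FPKM with construct 2 and 76.9 and 68.5 FPKM in control cells. Construct 1 lay below and construct 2 above the controls. The change was -0.37 ± 0.11 with construct 1 and 0.34 ± 0.11 with construct 2 (adjusted p = 0.0317 and 0.0352, limma), and the mean of both was -0.01 ± 0.09. Both calls depended on single libraries: the first was lost under 10 of 22 alternatives and the second under 11. The fall with construct 1 was -0.28 without 4A (adjusted p = 0.187) and -0.45 without 5A (adjusted p = 0.0576, range over all alternatives 0.00207 to 0.217). The rise with construct 2 was 0.16 without 4C (adjusted p = 0.152), 0.52 without 5C (adjusted p = 0.000696) and 0.42 without 4A (adjusted p = 0.0547, range over all alternatives 0.000696 to 0.21). In DU145DR, CDK1 was at 135 and 122 FPKM with construct 1, 135 and 129.6 FPKM with construct 2 and 118 and 125 FPKM in control cells, a mean change of 0.10 ± 0.09 that was not called.

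**Figure D3:**
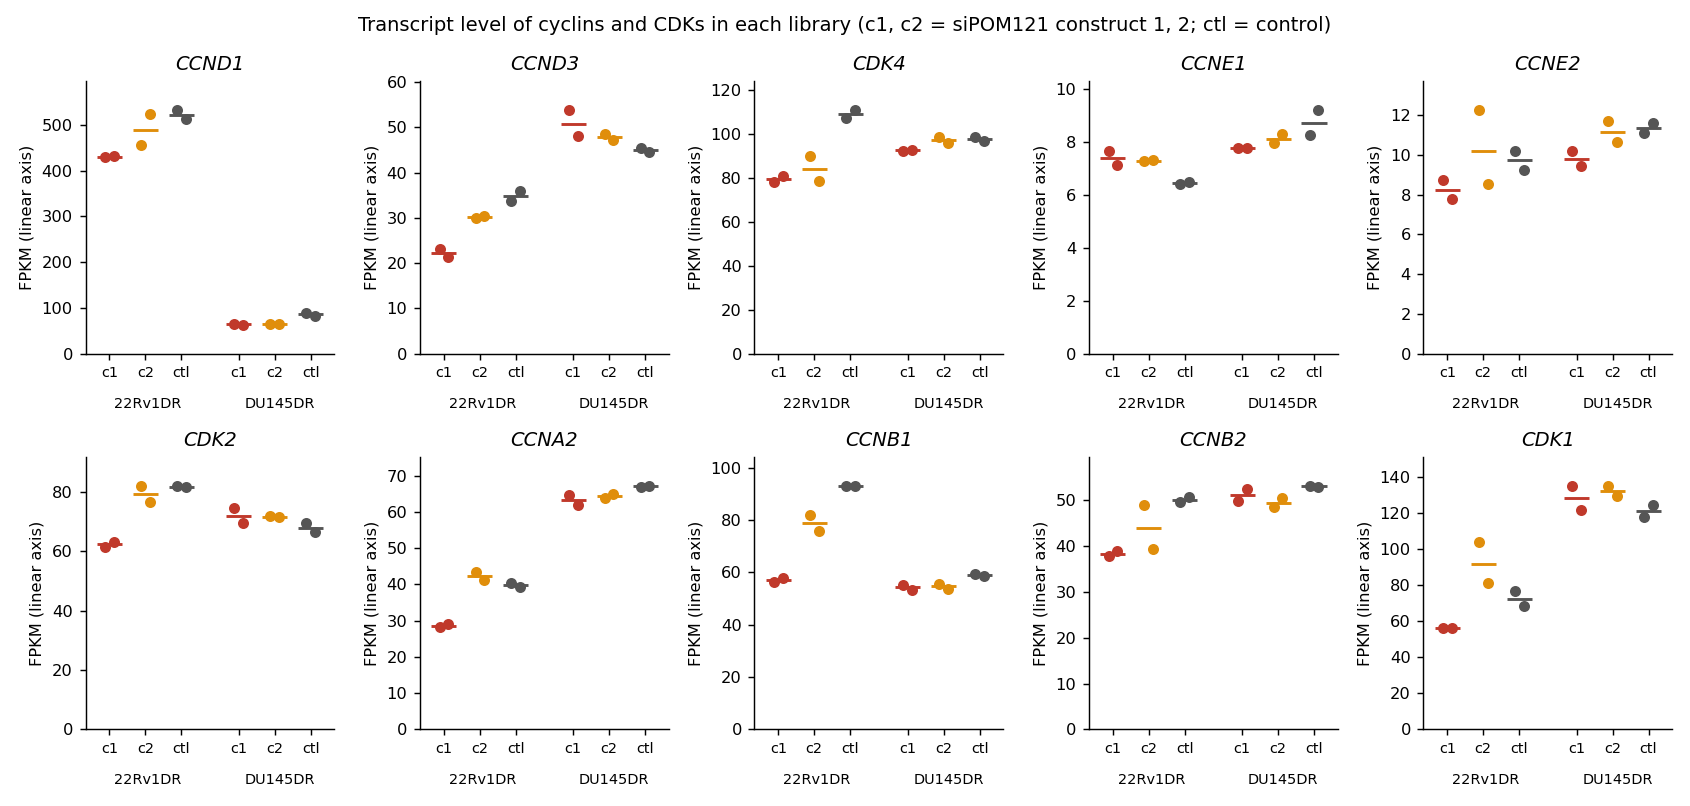
FPKM (linear axis) of each transcript in every library of construct 1, construct 2 and control, in 22Rv1DR and DU145DR; points are libraries (mean of 2 lanes) and bars the group's geometric mean. CCNB1 in 22Rv1DR steps between 57.2 with construct 1, 78.8 with construct 2 and 92.9 in control cells, and CCND1 in DU145DR lies at 64.0 and 65.0 with the constructs and 85.8 in control cells.

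The 2 constructs were also set against each other. For POM121 itself construct 2 minus construct 1 was -0.13 ± 0.06 in 22Rv1DR (95% interval -0.26 to -0.0056, adjusted p = 0.153, limma), or -0.06 without 4C and -0.20 without 5C, where it was called (adjusted p = 0.0077, range over all alternatives 0.0077 to 0.497). In that line 5 of the 10 members were higher with construct 2 than with construct 1 and none was lower, where 11.6% of all symbols were called, 7.3% higher and 4.28% lower. These calls over all symbols turned on single libraries: 1577 with all libraries (994 higher, 583 lower), 5983 without 5C (1995 higher, 3988 lower) and 223 without 4B (170 higher, 53 lower). CDK1 was 0.71 ± 0.11 higher on the log2 scale (1.63-fold), CCNA2 0.57 ± 0.04 higher (1.48-fold), CCNB1 0.46 ± 0.05 higher, CCND3 0.44 ± 0.07 higher and CDK2 0.35 ± 0.05 higher, with adjusted p between 0.000452 and 0.0056 in limma. Leaving out 1 library, the difference ran from 0.53 to 0.60 for CCNA2, 0.41 to 0.52 for CCNB1 and 0.38 to 0.49 for CCND3. It ran from 0.30 to 0.39 for CDK2 and 0.53 to 0.89 for CDK1. A fit with a lone library left in a group takes that group's spread from the others, so its calls do not measure it. With 22Rv1DR fitted alone, CCNA2 was called (adjusted p = 0.0462) and CCNB1, CDK2, CCND3 and CDK1 were not (0.0661, 0.0771, 0.0907 and 0.149). Without 4B the calls of CDK2 and CDK1 were lost (0.0552 and 0.0547), and without 5B that of CCND3 (0.0535). Besides CDK4, the members not called were CCND1 at 0.18 (95% interval 0.04 to 0.32, adjusted p = 0.0936, limma), CCNE2 at 0.31 (-0.02 to 0.64), CCNB2 at 0.19 (-0.0011 to 0.39) and CCNE1 at -0.02 (-0.16 to 0.13). CCND1 passed the threshold without 4C (0.00366), and CCNE2 (0.00181) and CCNB2 (0.000449) without 5C. In DU145DR the constructs differed for none of the 10 in limma, also at an unadjusted p under 0.05, and 0.022% of all symbols were called, 0.00734% higher and 0.0147% lower.

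A test of whether the difference between constructs itself differed between the lines was added after the values were seen. It called CCNA2 (0.54 ± 0.06, adjusted p = 0.0108), CCNB1 (0.45 ± 0.07, adjusted p = 0.0233) and CCND3 (0.52 ± 0.09, adjusted p = 0.0371) in limma, where 1.19% of all symbols were called, 0.954% higher. CDK2 (0.35 ± 0.07, adjusted p = 0.0545) and CDK1 (0.66 ± 0.15, adjusted p = 0.0736) were not called. None of the calls of CCNA2, CCNB1 and CCND3 held in every fit without 1 library, and the calls over all symbols moved in those fits too. The difference ran there from 0.50 to 0.58 for CCNA2, 0.39 to 0.51 for CCNB1 and 0.44 to 0.60 for CCND3.

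**Figure D4:**
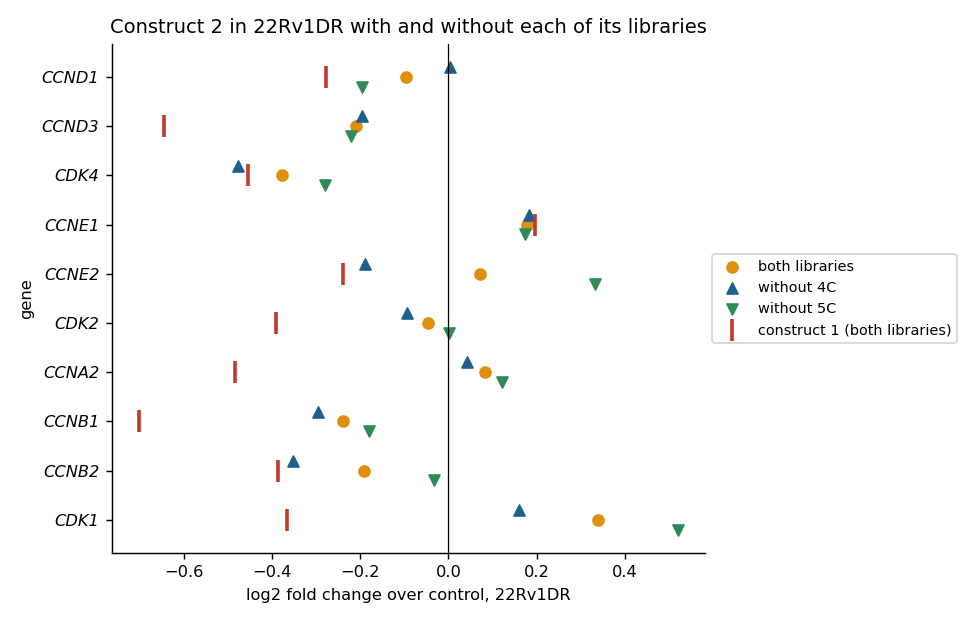
Log2 fold change of each transcript in 22Rv1DR for construct 2 over control with both libraries, without library 4C and without library 5C, beside construct 1 over control. CDK4 and CCNB1 stay left of 0 in all 3 construct 2 fits, while CCNE2 lies at -0.19 without 4C and at 0.33 without 5C.

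The effect of siPOM121, as the mean of both constructs, was then compared between the lines. In 22Rv1DR 7 members fell and 1 rose by this measure (35.5% of all symbols called, 20.4% lower and 15.2% higher), and in DU145DR only CCND1 fell (23.9% called, 9.37% lower). The effect differed between lines for 5 of the 10 members, where 24.8% of all symbols were called, 15.9% lower and 8.93% higher. It was lower in 22Rv1DR for CCND3 (-0.56 ± 0.08), CDK4 (-0.38 ± 0.07), CCNB1 (-0.35 ± 0.06) and CDK2 (-0.30 ± 0.06), and higher for CCNE1 (0.32 ± 0.08), with adjusted p between 0.0019 and 0.0176 in limma. CCND3, CDK4, CCNB1 and CDK2 kept this call under all 21 alternatives. CCNE1 lost it under 5 (highest adjusted p = 0.118, limma), 3 of them the fits without 2A, 4A or 5A. Without 4C CCNB2 (0.00187) and CCNA2 (0.0257) also passed it. CCND1 fell in both lines, and its effect was 0.22 ± 0.08 above that of DU145DR in 22Rv1DR, a difference that was not called (adjusted p = 0.0617, limma). It passed the threshold without 4C (0.00186) and without 5C (0.0112, range over all alternatives 0.00186 to 0.206). POM121 itself fell more in 22Rv1DR (-2.37 ± 0.05) than in DU145DR (-0.71 ± 0.05), a difference of -1.66 ± 0.07 (adjusted p = 2.84e-06, limma). Its part in the differences between lines was not tested, nor was that of reads shared with TSPAN31 in the CDK4 difference.

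In control cells 8 members differed between the lines, as did most of the symbols tested. This count does not set the members apart from other symbols. CCND1 was 6.09-fold higher in 22Rv1DR than in DU145DR, at 522 against 85.8 FPKM. CCNB1 (0.65 ± 0.05 on the log2 scale), CDK2 (0.27 ± 0.05) and CDK4 (0.16 ± 0.06) were also higher in 22Rv1DR. CCNA2 (-0.75 ± 0.04), CDK1 (-0.74 ± 0.11), CCNE1 (-0.43 ± 0.06) and CCND3 (-0.37 ± 0.07) were lower there, each with an adjusted p of at most 0.031 in limma. These 8 calls stand against 83% of all symbols called between the control lines, 40.3% higher and 42.7% lower in 22Rv1DR. Against 4A alone, which shared its lanes with DU145DR, 7 of the 8 kept the call and CDK4 did not (0.14, adjusted p = 0.136, the highest of all alternatives). 

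By level per transcript length, CCND1 led in 22Rv1DR control cells at 4.79 times CDK4, followed by CCNB1, CDK2, CDK1, CCNB2, CCNA2, CCND3, CCNE2 and CCNE1, and no neighbours in that order overlapped between libraries. With construct 1 the order was the same except that CDK2 stood above CCNB1. With construct 2 CDK1 stood next to CCND1, though CDK1, CDK4, CDK2 and CCNB1 overlapped their neighbours in that order. In DU145DR control cells CDK1 led, followed by CDK4, CCND1, CDK2, CCNA2, CCNB1, CCNB2, CCND3, CCNE2 and CCNE1, and only CDK2 and CCNA2 overlapped. With either construct in DU145DR, CCND1 stood below CDK2 and overlapped CCNA2.

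The genes that control these kinases were read from 5 lists. Cells restrain cyclin-CDK complexes with inhibitor proteins, with inhibitory phosphates placed by WEE1 and PKMYT1 and removed by the CDC25 phosphatases, and by destruction of cyclins through the anaphase-promoting complex and SCF ligases. In 22Rv1DR, 12 of the 21 tested genes of cyclin degradation fell and 1 rose (list median -0.23 against -0.02 over all symbols), where 20.4% of all symbols fell. CDC20, an activator of the anaphase-promoting complex, was at 60.3 FPKM with construct 1, 69.4 FPKM with construct 2 and 99.8 FPKM in control cells (geometric means), a mean change of -0.63 ± 0.09. UBE2C, its ubiquitin-conjugating enzyme, changed by -0.56 ± 0.08 and FBXO5, its inhibitor, by -0.35 ± 0.05 (adjusted p from 0.000872 to 0.000907 for the 3, limma). With 22Rv1DR fitted alone 5 of the list were called in place of 13, and 2065 of all symbols in place of 4842. CDC20 and UBE2C were not called there (adjusted p = 0.0613 and 0.0631, limma). In DU145DR 3 of the list fell and 1 rose, where 23.9% of all symbols were called. There 9 were called without 4C or without 5C and none without 2A, while the calls over all symbols moved to 5136 and 1554 in place of 3253. ANAPC1 and ANAPC4, subunits of the anaphase-promoting complex, changed by -0.21 ± 0.05 and -0.19 ± 0.06 there, and CUL1, the SCF scaffold, by -0.21 ± 0.06. CUL1 and ANAPC4 lost their calls under 11 and 12 of 22 alternatives, and ANAPC1 without 2A (adjusted p up to 0.179, 0.212 and 0.102).

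Of the 7 tested genes of CDK phosphorylation control, 3 fell and 1 rose in 22Rv1DR, where 35.5% of all symbols were called. Without 4C all 7 were called, as were 6129 of all 13622 symbols in place of 4842. CDC25A, the phosphatase that activates CDK2, was at 4.14 FPKM with construct 1, 6.80 FPKM with construct 2 and 7.76 FPKM in control cells, a change of -0.91 ± 0.05 with construct 1 and -0.19 ± 0.05 with construct 2. PKMYT1, an inhibitory kinase of CDK1, was at 26.2 FPKM with construct 1, 34.6 FPKM with construct 2 and 50.2 FPKM in control cells. MNAT1, a subunit of the CDK-activating kinase, was 0.31 ± 0.05 higher with siPOM121. Between the constructs, 5 of the 7 were higher with construct 2 in 22Rv1DR and none lower (11.6% of all symbols called), among them CDC25A by 0.72 ± 0.05 (adjusted p = 0.000316, limma). That count was lower without 4B, as was that of all symbols. With 22Rv1DR fitted alone it was 1, and 71 of all symbols were called in place of 1577. In DU145DR CDC25A changed by -0.26 ± 0.05, and CDC25B and WEE1 were 0.28 ± 0.05 and 0.20 ± 0.04 higher with siPOM121. WEE1 was not called without 1A or 2A and CDC25B not without 2A, fits that leave a lone control library. The list's count was lower in both fits, as were the calls over all symbols. Leaving out 1 library, the change ran from 0.19 to 0.21 for WEE1 and from 0.26 to 0.30 for CDC25B.

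Several CDK inhibitors rose, CDKN1A and CDKN1B in both lines. Of 11 tested inhibitors and pocket proteins, 5 rose and 2 fell in 22Rv1DR and 5 rose and none fell in DU145DR, with 4 and 6 not called, where 15.2% of all symbols rose in 22Rv1DR and 14.5% in DU145DR. CDKN1A (p21) was at 120.2 FPKM with construct 1, 105.5 FPKM with construct 2 and 73.4 FPKM in control 22Rv1DR cells, a change of 0.62 ± 0.05. In DU145DR it was at 19.8 FPKM with construct 1, 19.4 FPKM with construct 2 and 15.0 FPKM in control cells, a change of 0.39 ± 0.05. CDKN1C (p57) rose by 1.09 ± 0.11 in 22Rv1DR, to 9.44 FPKM with construct 1 and 11.2 FPKM with construct 2 against 4.83 FPKM in control cells. CDKN1B (p27) rose by 0.22 ± 0.05 in 22Rv1DR and 0.23 ± 0.05 in DU145DR, and CDKN2D (p19) by 0.76 ± 0.08 in DU145DR. Without 5A fewer of the list were called in 22Rv1DR, as of all symbols, and the CDKN1B call was lost there. In DU145DR the CDKN1B call was lost without 1A or 2A. Each of these fits leaves a lone control library. Leaving out 1 library, the CDKN1B change ran from 0.20 to 0.24 in 22Rv1DR and from 0.19 to 0.27 in DU145DR.

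Of 18 other cyclins tested, 7 rose and 1 fell in 22Rv1DR, and 4 rose and 3 fell in DU145DR. Of all symbols 15.2% rose and 20.4% fell in 22Rv1DR, and 14.5% rose and 9.37% fell in DU145DR. CCNC, the cyclin of the Mediator kinase module, was at 48.6 FPKM with construct 1, 50.5 FPKM with construct 2 and 32.4 FPKM in control 22Rv1DR cells (0.61 ± 0.04), and CDK8, its kinase, rose by 0.25 ± 0.04. CCNG1, a p53 target, rose by 0.44 ± 0.05, and CCNF, the cyclin of an SCF ligase, fell by 0.37 (SE 0.06). In DU145DR CCNA1, the A cyclin known from the germ line, rose by 0.63 ± 0.05, CCNG2 rose by 0.41 ± 0.05 and CCNL1 fell by 0.31 (SE 0.05). Of 16 other CDKs tested, 2 rose and 3 fell in 22Rv1DR and 3 rose in DU145DR, where 35.5% of all symbols were called in 22Rv1DR and 23.9% in DU145DR. CDK17 rose by 0.49 ± 0.05 in 22Rv1DR, and CDK18, CDK5 and CDK19 rose by 0.70 ± 0.08, 0.34 ± 0.07 and 0.32 ± 0.06 in DU145DR. The CDK5 call was lost without 2A (adjusted p = 0.0726) and that of CDK19 without 1A (0.0612), the highest of all alternatives. CDK11B changed by -0.61 ± 0.08 in 22Rv1DR, but it has a near-identical copy, CDK11A, with which it may share reads. In 22Rv1DR the counts of called genes in both lists were lower without 5A, and that of other CDKs was higher without 4C. The calls over all symbols moved the same way in these fits.

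**Figure D5:**
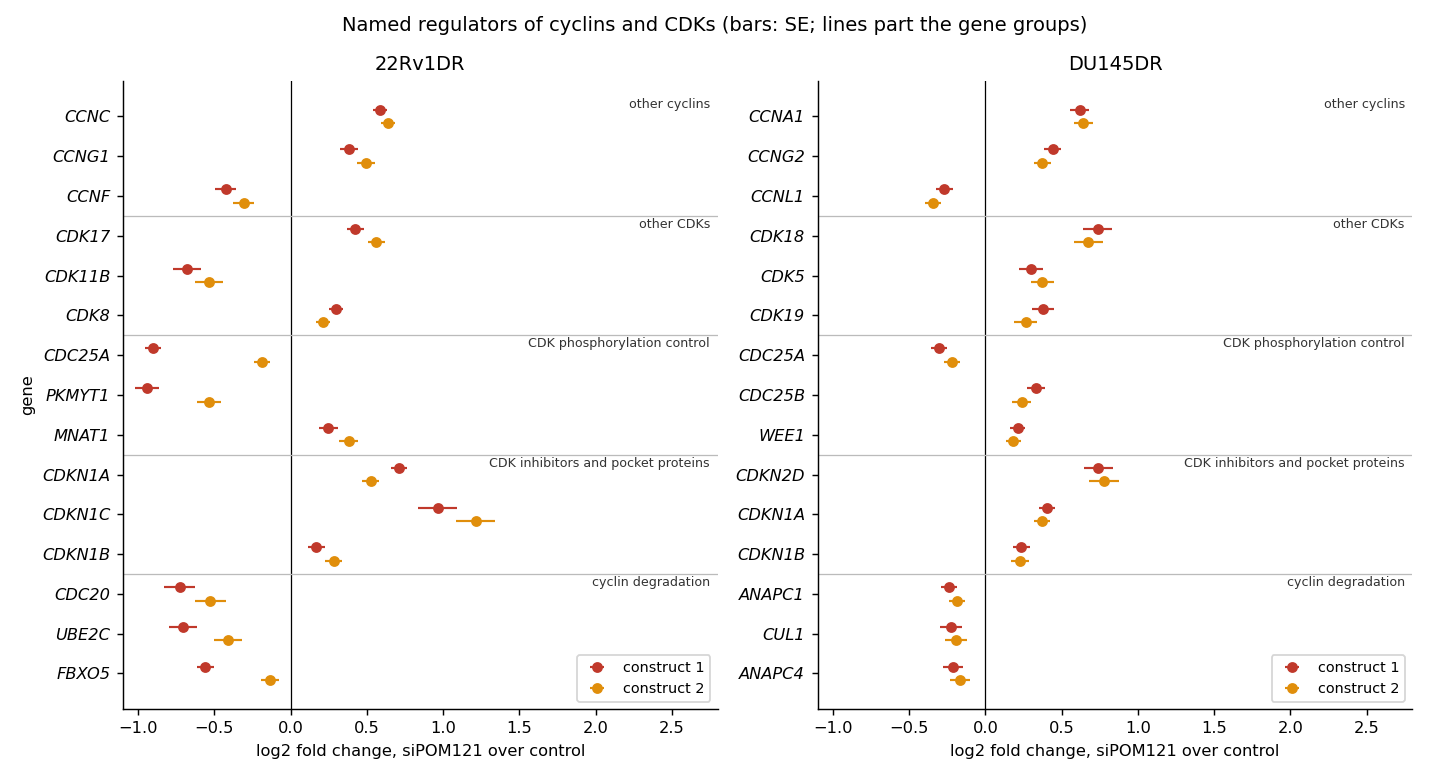
Log2 fold change of the named regulators for construct 1 and construct 2 over control in 22Rv1DR and DU145DR (points, fitted change; bars, SE; n = 2 libraries per group), grouped by list. CDKN1A lies right of 0 in both lines, and in 22Rv1DR CDC25A lies at -0.91 with construct 1 and -0.19 with construct 2.

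For the members called in 22Rv1DR, the genes of most similar pattern were sought among 7587 symbols, by the root mean square difference of log2 values over the 12 libraries after subtracting the control mean of each line. TUBG1 was closest to CDK4 (0.02) and CDCA5 and CHEK1 were closest to CCNB1 (0.04 and 0.05). NEDD1 and RAD1 were closest to CCNA2 (0.06 each), POLR2L and NELFE to CDK2 (0.04 each), LSM2 and BUB3 to CCNB2 (0.05 each), DSN1 and ARHGEF39 to CCND3 (0.08 each), TMEM199 and SLC7A5 to CCND1 (0.05 and 0.06), and PPP2R2A and SERP1 to CCNE1 (0.04 and 0.05). For none of these 8 members was another member among the 2 closest genes. CDK4 and CCNB2 were the closest pair of members at 0.10, CCNB2 ranking 109 of 7587 for CDK4. The closest member to CCND1 was CCNB2 at 0.23, ranking 1962.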

How the data were processed

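Poly(A) RNA of 12 libraries was sequenced on 2 lanes each with a TruSeq v2 kit, which does not mark strand, per the labels' protocols. Reads were aligned with TopHat and quantified with Cufflinks on hg19, per the submitters' processing notes, which also name mm10. The deposited table holds log2 FPKM per gene symbol: 100% of the values above 0 turn into numbers of 6 significant digits as powers of 2 (within 0.02 units of the sixth digit), against 3.98% as powers of e. Values at or under 1 FPKM were listed at 0, which holds for 52.8% of values. Sequencing depth is unknown, and no counting interval is given.

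The log2 values of the lanes of a library were averaged, and the 13622 symbols tested had both lanes over the floor in 2 or more libraries. limma 3.58.1 in R 4.3.3 was run with 1 mean per group, a shared spread over the 6 groups (6 residual degrees of freedom), and trend and robust moderation. Tests are 2-sided with Benjamini-Hochberg adjustment over all symbols tested and a threshold of 0.05. SE is the moderated standard error. The procedure was tested on simulated data. Repeated symbols (605) kept the line with the highest mean.

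The members and the 5 lists of regulators were chosen with earlier results of these data known. From each list up to 3 genes per line were named, those with the smallest p past the threshold and a mean of at least 5 FPKM. Similar genes were the 2 nearest among symbols with a mean of at least 5 FPKM in both lines. Promoter windows are from RefSeq (GRCh38.p14), another build than the expression table, and exon overlaps from GENCODE v29. Alternatives changed the pseudocount, low-value filter, scaling, lanes, moderation and samples fitted, left out each library, or added a replicate block.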

Additional observations from a re-analysis of the deposited data

Results flagged for a closer look

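In 5 members the effect of siPOM121, as the mean of both constructs over control, differed between the lines in limma's interaction test over 13622 symbols. Differences are 22Rv1DR minus DU145DR, and 24.8% of all symbols were called in the same test. For CCND3 the difference was -0.56 (adjusted p = 0.0019), from -0.43 in 22Rv1DR and 0.13 in DU145DR. For CDK4 it was -0.38 (adjusted p = 0.00733), from -0.42 in 22Rv1DR and -0.04 in DU145DR. For CCNB1 it was -0.35 (adjusted p = 0.00378), from -0.47 in 22Rv1DR and -0.12 in DU145DR. For CDK2 it was -0.30 (adjusted p = 0.00859), from -0.22 in 22Rv1DR and 0.08 in DU145DR. For CCNE1 it was 0.32 (adjusted p = 0.0176), from 0.19 in 22Rv1DR and -0.13 in DU145DR. POM121 was lowered to 0.194-fold of control in 22Rv1DR and 0.612-fold in DU145DR, and its part in these differences was not tested. The part of reads shared with TSPAN31 in the CDK4 difference was not tested either.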

How the results depend on the processing

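CCND3, CDK4, CDK2, CCNA2 and CCNB1 in 22Rv1DR, and CCND1 in DU145DR, kept the direction and the call of the mean of both constructs under all 22 alternatives. With 22Rv1DR fitted alone, the members called were 5 for both constructs and 4 for construct 1, in place of 8 and 9. For construct 2 the count was 0 and between constructs 1, in place of 4 and 5. In the same order 2065, 1485, 1516 and 71 of all symbols were called, in place of 4842, 3697, 4783 and 1577. Fewer samples enter that fit. Between lines no fit of a line alone can be made. Quantile normalization called 2 members for construct 1 in DU145DR in place of 1, and 2835 of all symbols in place of 2700. For the difference between constructs between lines, the replicate block and the lower-numbered lanes each called 1 in place of 3. Of all symbols they called 25 and 67 in place of 162. Leaving out 1 library, the members called ran from 5 to 9 for both constructs, 5 to 10 for construct 1, 2 to 7 for construct 2 and 3 to 8 between constructs in 22Rv1DR, 1 to 2 for both constructs, for construct 1 and for construct 2 in DU145DR, 4 to 8 for the difference of effects between lines, 7 to 9 between control lines, and 0 to 7 for the construct difference between lines. A lone library left in a group was assumed to vary like the other groups, and the calls over all symbols moved in these fits as well.

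Directions turned only for values that were not called. Under quantile normalization these were CDK1 for both constructs in 22Rv1DR (0.0239, and 0.0286 with median centring), CDK4 in DU145DR for both constructs (0.0044) and construct 2 (0.0227), CCNE1 between constructs in 22Rv1DR (0.0076), CCND1 (-0.0129), CCNA2 (-0.0103) and CCNB1 (-0.0271) between constructs in DU145DR, and CCNB2 between control lines (0.033, and 0.0842 with median centring). With the lower-numbered lanes CCNE2 for construct 2 in DU145DR (0.0099) and CCNE1 between constructs in 22Rv1DR (0.0127) turned, and with the higher-numbered lanes CCNB1 (-0.0117) and CDK2 (0.0234) between constructs in DU145DR and CDK4 in the construct difference between lines (-0.0027). Leaving out 1 library turned the sign of 16 values. Between constructs in DU145DR, CCNA2 ran from -0.0068 to 0.0562, CCNB1 from -0.0150 to 0.0388, CDK1 from -0.0271 to 0.1186 and CDK2 from -0.0547 to 0.0433. Between constructs in 22Rv1DR, CCNE1 ran from -0.0683 to 0.0323 and CDK4 from -0.0214 to 0.1758. For construct 2 in 22Rv1DR, CCND1 ran from -0.1967 to 0.0026, CCNE2 from -0.1896 to 0.3331 and CDK2 from -0.0948 to 0.0023. For both constructs in 22Rv1DR, CCNE2 ran from -0.2144 to 0.0470 and CDK1 from -0.1029 to 0.0764. For construct 2 in DU145DR, CCNE2 ran from -0.0951 to 0.0419 and CDK4 from -0.0271 to 0.0145. CCNE2 ran from -0.0950 to 0.1664 for the difference of effects between lines and from -0.1360 to 0.3867 for the construct difference, where CDK4 ran from -0.0907 to 0.1065. The cause of these moves was not tested.

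The replicate block, with the library number paired within each line, called 8 members for both constructs in 22Rv1DR and 1 in DU145DR, as without it, 8 in place of 9 for construct 1 in 22Rv1DR and 7 in place of 8 between control lines. The numbers are not known to pair the libraries: deviations of same-numbered libraries correlated between -0.10 and 0.13. Over all symbols the block called 25 in place of 162 for the construct difference between lines. The share of calls that were higher moved to 55.0% in place of 44.1% for construct 1 in 22Rv1DR and to 49.6% in place of 63.0% between constructs in 22Rv1DR with median centring, and with quantile normalization to 54.4% in place of 66.1% for construct 2 in DU145DR and to 49.2% in place of 36.0% for the difference of effects. Median centring moved the median of all symbols between control lines from -0.02 to 0.14. Depth is unknown, so what it limits cannot be given.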
